A study of Homo sapiens with 17 samples.

Results

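PBRM1 occupancy of the genome was compared between T3-treated and vehicle-treated Nthy-ORI cells by CUT&RUN. The regions were those of the authors' PBRM1 T3 list and PBRM1 vehicle list on chromosomes 1 to 22 and X, 38132 and 9115 regions in build hg38. These 47247 regions are part of 266724 regions in the 8 lists of the series. A region that met a region of the other list by at least 1 bp was called shared, and any other region was called T3-only or vehicle-only. Nthy-ORI is an established human cell line of thyroid follicular epithelium that was immortalised, so the comparison is within 1 line. Before treatment, all cells spent 24 hours without hormone in charcoal-stripped serum. The treated cells then received 10 nM T3 (triiodothyronine, the active thyroid hormone), and the vehicle cells received NaOH, the solvent of the hormone. The library labels give 6 hours of treatment, although the protocol text also names 24 hours. Each reaction used nuclei of 500000 cells, and each condition had 2 libraries. Nothing says that the 2 libraries came from separate cultures.

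PBRM1, also called polybromo-1 or BAF180, is a bromodomain-rich subunit of PBAF, one form of the SWI/SNF chromatin remodelers. PBAF shares its BRG1 or BRM ATPase and core subunits with BAF, and is set apart by PBRM1, ARID2, BRD7 and PHF10, whereas ARID1A belongs to BAF. Thyroid hormone receptors bind DNA mostly as heterodimers with retinoid X receptors, at pairs of AGGTCA-like motifs. Without T3 they recruit corepressors, and with T3 they recruit coactivators. CUT&RUN cuts DNA around an antibody-bound protein in nuclei, so a listed region is a place where the antibody's target was found on chromatin. It is not a measure of expression of the gene nearby, and the labelled cell type could not be checked by expression here.

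A small set of start sites under PBRM1 regions is printed first as examples. Most regions of each class had their midpoint farther than 1 kb from a start. Each line gives 300 bases of RefSeq sequence (GRCh38.p14), from 250 bases before to 50 after a transcription start, read 5′ to 3′ along the gene, with AGGTCA or its reverse complement TGACCT in capitals. The first 3 lay under T3-only regions at RXRA, a dimer partner of thyroid hormone receptors, and at the PBAF genes PBRM1 and BRD7. The fourth lay under a T3-only region at an internal start of SMAD3, a mediator of TGF-beta signals, and held the motif at 2 places. The fifth lay under a shared region at THRB, which encodes thyroid hormone receptor beta (TRβ).
RXRA, chr9:134326205-134326504, + strand: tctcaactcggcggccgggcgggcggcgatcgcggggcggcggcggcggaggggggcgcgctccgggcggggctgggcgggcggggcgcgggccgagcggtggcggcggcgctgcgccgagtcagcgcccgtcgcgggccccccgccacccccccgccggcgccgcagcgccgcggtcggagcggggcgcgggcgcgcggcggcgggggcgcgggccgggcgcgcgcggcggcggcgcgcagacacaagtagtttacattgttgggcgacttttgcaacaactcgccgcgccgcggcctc
PBRM1, chr3:52685864-52686163, - strand: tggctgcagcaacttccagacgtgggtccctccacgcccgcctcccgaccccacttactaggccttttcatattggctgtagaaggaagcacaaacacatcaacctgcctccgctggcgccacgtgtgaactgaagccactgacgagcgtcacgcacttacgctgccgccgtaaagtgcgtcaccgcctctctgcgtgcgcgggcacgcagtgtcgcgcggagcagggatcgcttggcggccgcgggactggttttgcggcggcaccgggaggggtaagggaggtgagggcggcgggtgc
BRD7, chr16:50368939-50369238, - strand: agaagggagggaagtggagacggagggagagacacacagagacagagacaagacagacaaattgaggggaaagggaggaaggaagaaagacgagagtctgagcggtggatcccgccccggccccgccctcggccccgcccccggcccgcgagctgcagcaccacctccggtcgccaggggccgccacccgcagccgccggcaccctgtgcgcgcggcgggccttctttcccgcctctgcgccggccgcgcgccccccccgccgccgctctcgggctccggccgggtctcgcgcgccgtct
SMAD3, chr15:67137771-67138070, + strand: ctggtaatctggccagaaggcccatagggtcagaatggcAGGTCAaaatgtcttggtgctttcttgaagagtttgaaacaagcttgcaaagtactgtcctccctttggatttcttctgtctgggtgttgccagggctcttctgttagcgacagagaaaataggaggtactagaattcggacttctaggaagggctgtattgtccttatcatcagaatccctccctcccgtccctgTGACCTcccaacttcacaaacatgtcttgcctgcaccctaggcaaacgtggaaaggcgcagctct
THRB, chr3:24494801-24495100, - strand: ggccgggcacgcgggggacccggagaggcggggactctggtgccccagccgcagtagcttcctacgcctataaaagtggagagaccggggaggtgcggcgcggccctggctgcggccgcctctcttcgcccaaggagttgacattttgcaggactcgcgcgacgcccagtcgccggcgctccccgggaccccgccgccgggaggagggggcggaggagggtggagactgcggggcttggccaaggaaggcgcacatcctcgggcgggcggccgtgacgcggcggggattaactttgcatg

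The T3-only region over the RXRA start was 1920 bp wide and had signal values of 8.39 and 9.89 in the first and second T3 library. The region over both PBRM1 starts, of which 1 is printed, was 1313 bp wide, with 7.32 and 7.29. That at the BRD7 start was 1202 bp wide, with 16.8 and 7.29, so the libraries ranked it unequally. The SMAD3 region was 1137 bp wide, with 8.93 and 9.22. The shared region at the THRB start was 2513 bp wide in the T3 list, with 13.2 and 7.28. A signal value is the authors' peak value within 1 library, and is used below to describe and rank regions within a list. The exception is a signal minimum taken from the vehicle list and applied to the T3 list. The RXRA window held 65 CpG dinucleotides at 84.0% G or C, the PBRM1 window 31 at 65.3%, the BRD7 window 37 at 73.3% and the THRB window 35 at 72.0%. The SMAD3 window differed from these, with 5 CpG dinucleotides at 49.3% G or C.

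Most regions listed with T3 had no partner in the vehicle list. Of the 38132 T3 regions, 30188 were T3-only, which is 79.2% (78.8 to 79.6%, exact Clopper-Pearson 95% interval), and 7944 were shared. Of the 9115 vehicle regions, 2268 were vehicle-only, which is 24.9% (24.0 to 25.8%), and 6847 were shared. The T3 list held 4.18 times as many regions as the vehicle list and covered 2.85 times as much sequence, 37.4 Mb with T3 and 13.1 Mb with vehicle. T3-only regions covered 26.8 Mb and vehicle-only regions 2.15 Mb. In a bulk population, more cells with PBRM1 at a region and more PBRM1 per cell cannot be told apart. Each condition had 1 list made from both libraries, so the difference between lists has no replicate check. The intervals cover counting error across regions only.

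The lists also differed in how far down they reached and in how alike their libraries were, which bears on every count that follows. The lowest signal values were 3.23 in the first and 2.44 in the second library of the T3 list, against 4.75 and 4.85 in the vehicle list. Spearman's rho between the 2 libraries was 0.256 across the 38132 T3 regions and 0.898 across the 9115 vehicle regions, as a description of regions that share their libraries. An IDR (irreproducible discovery rate) of at most 0.01 was reached by 60.3% of T3 regions and 23.3% of vehicle regions. Read depth is not given in the sources used here, and its part in the different list lengths was not tested. When the T3 list was cut to the 9115 regions of highest signal value, the T3-only share was 60.6% and the vehicle-only share 60.7%. Lists of equal length have nearly equal shares by construction, so this setting describes the strongest T3 regions and does not test the excess. A signal minimum of 4.75, the lowest library value of the vehicle list, was also set for both library values. It removed no vehicle region and only shortened the T3 list, so the vehicle-only share could only stay or rise. With it, 71.9% of T3 regions were T3-only and 41.5% of vehicle regions vehicle-only. At an IDR of at most 0.01, which also removed the larger part of the vehicle list, the shares were 89.9% and 10.9%.

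Regions found in only 1 condition were weaker than shared ones within each list. T3-only regions had median signal values of 6.41 (quartiles 5.12 and 8.26) in the first T3 library and 5.26 (4.06 and 7.10) in the second. Shared regions of the T3 list had 8.22 (6.34 and 10.98) and 7.11 (4.87 and 10.5). Vehicle-only regions had 5.76 (5.33 and 6.73) and 6.34 (5.62 and 7.40), and shared regions of the vehicle list 7.57 (6.40 and 9.34) and 8.82 (6.95 and 11.8). The quartile ranges of the classes overlapped in every library. The first library held the higher value in 65.1% of T3-only regions and 34.7% of vehicle-only regions, so the balance of the libraries was not the same in the 2 lists.

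The share found in 1 condition was lower at each step up in signal value. Each list was split into 10 equal parts by signal value. In the weakest part of the T3 list, 91.7% of 3814 regions were T3-only (90.8 to 92.6%), and in the strongest part 53.0% (51.4 to 54.6%). In the vehicle list, 529 of the weakest 912 regions were vehicle-only (58%, 54.7 to 61.2%), and 0.768% of the strongest (7 of 912, 0.309 to 1.58%). The strongest vehicle regions were thus almost all matched with T3, whereas most of the strongest T3 regions had no vehicle partner.

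**Figure D1:**
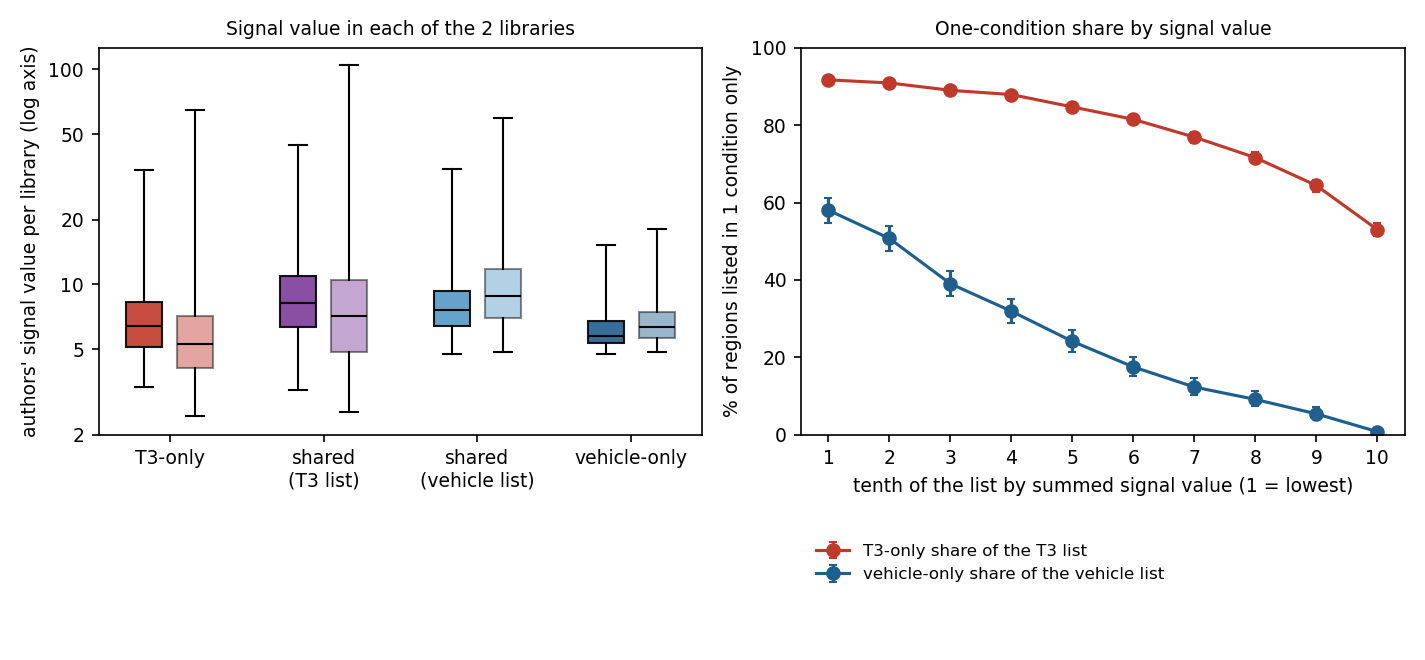
Left, the authors' signal value (log axis) in the first (dark) and second (pale) library of each class; boxes give quartiles and median, whiskers the lowest and highest region. Right, the share of regions found in 1 condition, in percent with exact 95% intervals, by 10 equal parts of each list from weakest to strongest; the T3-only share goes down to 53.0% and the vehicle-only share to 0.768%.

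T3-only regions were the narrowest class in the lists as deposited. Their median width was 747 bp (quartiles 532 and 1087, from 86 to 11254 bp), against 1156 bp (763 and 1686) for shared regions of the T3 list. Vehicle-only regions had a median of 886 bp (695 and 1132, at most 2861 bp), against 1431 bp (1023 and 1967) for shared regions of the vehicle list. The order of the classes found in 1 condition depended on the setting. T3-only regions were the wider ones with lists of equal length (1515 and 1043 bp) and with the signal minimum of 4.75 (1020 and 963.5 bp). Both settings took regions of low signal value out of the T3 list only, and such regions were narrow. At an IDR of at most 0.01, which shortened both lists, T3-only regions stayed the narrower ones (1037 and 1559 bp). Under 500 bp lay 21.3% of T3-only regions and 7.06% of vehicle-only regions. At 2000 to under 4000 bp lay 4.24% of T3-only regions and 1.46% of vehicle-only regions. The widest regions, of 4000 bp or more, included 55 T3-only regions and 0 of 2268 vehicle-only regions (upper limit 0.163%).

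Width and class went together in both lists. Among T3 regions under 500 bp, 90.3% were T3-only, and the share was 85.3% at 500 to under 1000 bp, 69.2% at 1000 to under 2000 bp, 51.7% at 2000 to under 4000 bp and 38.2% (55 of 144) from 4000 bp. Among vehicle regions the shares that were vehicle-only were 50.3%, 46.5%, 18.4%, 2.16% and 0 of 125 (upper limit 2.91%). Width rose with signal value within each class, with a rho of 0.72 in T3-only and 0.58 in vehicle-only regions, so the 2 measures are not independent. Within the strongest of the 10 parts of the T3 list, the median width was 1977 bp for T3-only and 2133 bp for shared regions. In the weakest part it was 473 bp for T3-only and 547 bp for shared regions. The gap in width between T3-only and shared regions was thus small among regions of like signal.

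**Figure D2:**
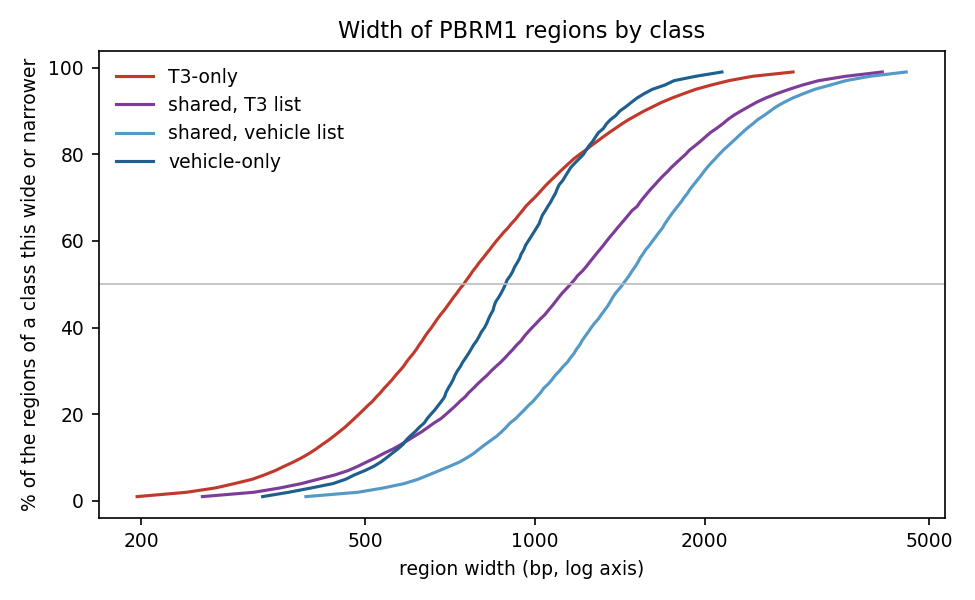
Cumulative share of the regions of each class (vertical axis, percent) by width in bp (log axis), drawn from the 1st to the 99th percentile. The T3-only curve crosses the 50% line at 747 bp and the vehicle-only curve at 886 bp, both left of the shared curves at 1156 bp (T3 list) and 1431 bp (vehicle list).

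Where both conditions held a region, the regions were of like size. In 5467 pairs, 1 T3 region met 1 vehicle region and no other. The median width in these pairs was 1253 bp with T3 and 1359 bp with vehicle, the median ratio of T3 to vehicle width was 0.914 (quartiles 0.693 and 1.17), and the T3 region was the narrower in 60.7%. Of the shared vehicle regions, 1098 of 6847 met 2 or more T3 regions, with at most 7. Conversely, 196 T3 regions met 2 or more vehicle regions. Part of the T3 regions thus stood in places that the vehicle list held as 1 interval. At PAX8, 3 narrow T3 regions of 266, 480 and 501 bp met a single vehicle region of 1747 bp.

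T3-only regions lay close to each other more often than to a vehicle region. The median gap from a T3-only region to the nearest other T3-only region was 3.69 kb (quartiles 0.551 and 19.4), and 31.8% had one within 1 kb. The median gap to the nearest vehicle region was 27.4 kb (6.37 and 89.5). Only 8.48% (2559 regions) lay within 1 kb of a vehicle region without meeting it. Vehicle-only regions lay a median of 3.04 kb (0.699 and 13.4) from the nearest T3 region, with 30.8% within 1 kb. These regions stand just outside the rule for sharing, and the longer T3 list leaves shorter gaps to itself.

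Shared PBRM1 regions were at transcription starts more often than either class found in 1 condition. The midpoint lay within 1 kb of a RefSeq transcription start in 25.3% of T3-only regions (24.8 to 25.8%), 44.2% of shared T3 regions (43.1 to 45.3%), 47.1% of shared vehicle regions and 12.9% of vehicle-only regions (11.5 to 14.3%). Regions inside a protein-coding or lncRNA gene but away from its ends made up 46.8% of T3-only, 34.3% of shared T3 and 58.6% of vehicle-only regions. Regions over 50 kb outside any such gene were rare, at 1.45% of T3-only, 0.604% of shared T3 and 1.41% of vehicle-only regions. The median distance to the nearest start was 9.39 kb for T3-only (quartiles 0.961 and 32.8), 1.90 kb for shared T3 and 15.4 kb for vehicle-only regions. Exons and introns were not distinguished, since exon positions were not used here.

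**Figure D3:**
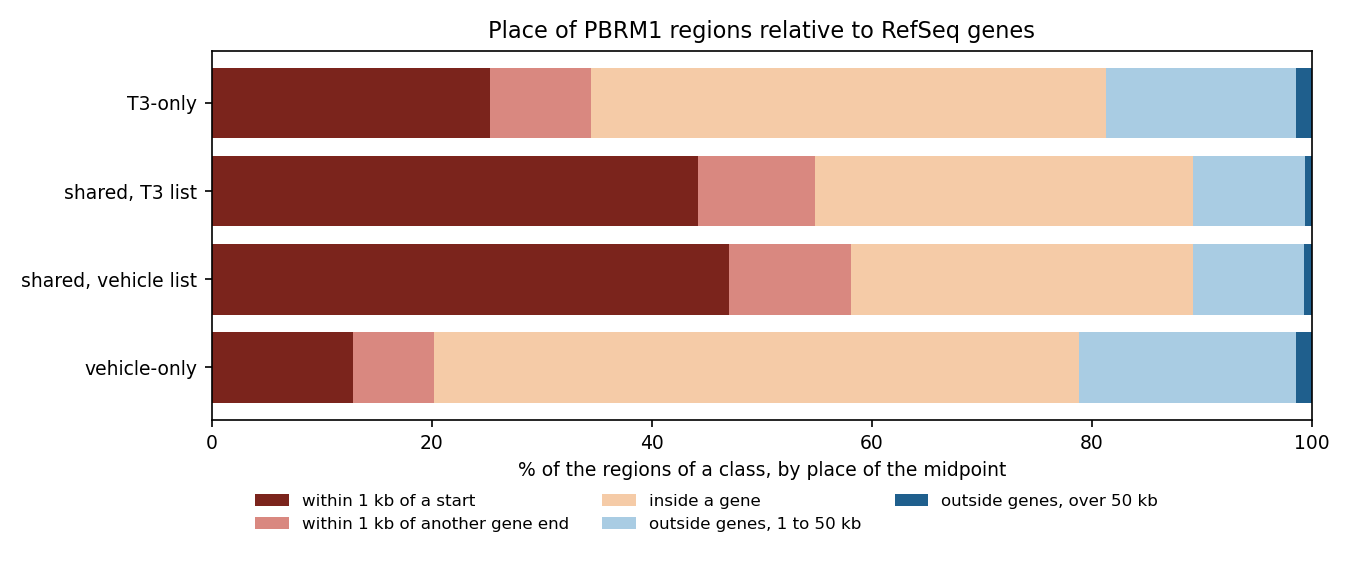
Place of the midpoint of each region relative to RefSeq protein-coding and lncRNA genes, as a percent of each class, with T3-only regions at the top and vehicle-only regions at the bottom. The share within 1 kb of a start is 25.3% in T3-only, 44.2% in shared T3, 47.1% in shared vehicle and 12.9% in vehicle-only regions.

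The place of T3-only regions went with their width. Of T3-only regions under 500 bp, 10.4% lay within 1 kb of a start, and the share was 19.6% at 500 to under 1000 bp, 43.5% at 1000 to under 2000 bp, 55.1% at 2000 to under 4000 bp and 25.5% (14 of 55) from 4000 bp. Shared T3 regions of the same widths had shares of 18.7%, 31.7%, 53.3%, 59.3% and 41.6%. Vehicle-only regions showed a weaker rise, with 10.0%, 11.3%, 15.8% and 15.2% in the first 4 width classes. The last of these values rests on 5 of 33 regions (5.11 to 31.9%). Most T3-only regions of 2000 to under 4000 bp were thus start-site regions, and most vehicle-only regions of that width were not.

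T3-only regions lay near chromosome ends more often than shared ones. Within 5 Mb of an end lay 20.9% of T3-only regions (20.4 to 21.3%), 14.5% of shared T3 regions and 15.96% of vehicle-only regions. The same stretches held 13.4% of protein-coding genes and 7.59% of the chromosomes' length. Among the other T3 lists, the share was 21.0% for ARID1A and 11.03% for BRG1, so the PBRM1 T3-only share was near that of ARID1A. Of the T3-only regions near an end, 39.6% met a BRG1 T3 region and 50.3% an ARID1A T3 region. Of those farther in, 59.6% met a BRG1 and 47.4% an ARID1A T3 region.

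Every chromosome had more T3 than vehicle regions. The ratio of T3 to vehicle regions ran from 3.51 on chromosome 3 to 5.0 on chromosome 19, and the T3-only share from 75.6% on chromosome 13 to 83.2% on chromosome 21. T3-only regions were densest on chromosomes 17 and 22, at 25.6 and 25.5 per Mb, and sparsest on X, at 2.11 per Mb. Per protein-coding gene, chromosome 22 held 2.88 and chromosome X 0.389. Chromosome 19, with the most genes per Mb, was also dense at 21.3 T3-only regions per Mb, yet held 0.862 per gene.

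Most PBRM1 regions of each class lay where another antibody's list also had a region, and shared regions did so most. BRG1, the common ATPase, was listed with T3 at 55.4% of T3-only regions, 86.4% of shared T3 regions and 48.2% of vehicle-only regions. The BRG1 vehicle list met 59.8%, 89.8% and 53.0% of the same classes. Only 4.62% of T3-only regions met the BRG1 T3 list and not the BRG1 vehicle list, and 9.07% met the BRG1 vehicle list alone. A T3-only PBRM1 region was thus most often a place with BRG1 in both conditions (50.8%) or in neither (35.5%). ARID1A T3 regions met 48.0% of T3-only, 73.5% of shared T3 and 31.9% of vehicle-only regions. BRG1 with no ARID1A in either condition was found at 16.4% of T3-only and 24.6% of vehicle-only regions.

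TRβ was listed at few PBRM1 regions. Its T3 list of 7186 regions met 9.63% of T3-only, 20.3% of shared T3 and 3.40% of vehicle-only regions. Its vehicle list of 1405 regions met 2.18%, 3.35% and 0.661%. The TRβ T3 share went with width, from 3.26% of T3-only regions under 500 bp to 61.8% (34 of 55) from 4000 bp. It was 21.6% for T3-only regions within 1 kb of a start and 5.57% for those farther away. None of the 6 lists of other antibodies met 23.7% of T3-only, 3.88% of shared T3 and 30.6% of vehicle-only regions. All 6 met 0.888%, 1.91% and 0.176%, and without these regions the T3-only share of the T3 list was 79.4% and the vehicle-only share of the vehicle list 25.4%. Every region left out in this way met TRβ with T3, so the TRβ T3 share of T3-only regions could only fall. It was then 8.84%.

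Genes with several T3-only regions were common. A gene was given every region whose midpoint lay in its span or within 5 kb of it. Of 19974 protein-coding genes, 11842 (59.3%) held 1 or more T3-only regions, 3196 (16.0%) held 3 or more, 1314 (6.58%) 5 or more and 345 (1.73%) 10 or more. For vehicle-only regions, 1644 genes (8.23%) held 1 or more and 69 (0.345%) held 3 or more. Of these 69 genes, 65 also held 3 or more T3-only regions. Of the 3196 genes with 3 or more T3-only regions, 1390 (43.5%) held no region of the vehicle list, against 67.8% of all protein-coding genes (32.2% held at least 1). With lists of equal length, 236 genes held 3 or more T3-only regions and 262 held 3 or more vehicle-only regions, as the cut sets the 2 classes nearly equal. With the signal minimum of 4.75 the counts were 1269 and 165 genes, and at an IDR of at most 0.01 they were 2031 and 0.

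Long genes held more regions, and 14.3% of T3-only regions counted for more than 1 gene while 21.4% counted for none. With genes in 4 equal groups by window length, 3 or more T3-only regions were held by 9.27%, 12.8%, 17.4% and 24.5%, from the shortest to the longest. The rho between window length and count was 0.2 across the 19974 genes. The highest counts were in long genes, with 59 T3-only regions at GSE1, 55 at TRIO, 42 at SEPTIN9 and at DIP2C, 41 at ZMIZ1, 38 at CRIM1, 37 at RXRA and at TTC34, and 34 at PRKAG2 and at RASA3. TRIO encodes a guanine nucleotide exchange factor, SEPTIN9 a septin of the cytoskeleton, and ZMIZ1 a transcriptional coactivator of the PIAS type. CRIM1 is a transmembrane protein that binds BMPs, PRKAG2 a regulatory subunit of AMP-activated kinase, and RASA3 a Ras GTPase-activating protein.

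**Figure D4:**
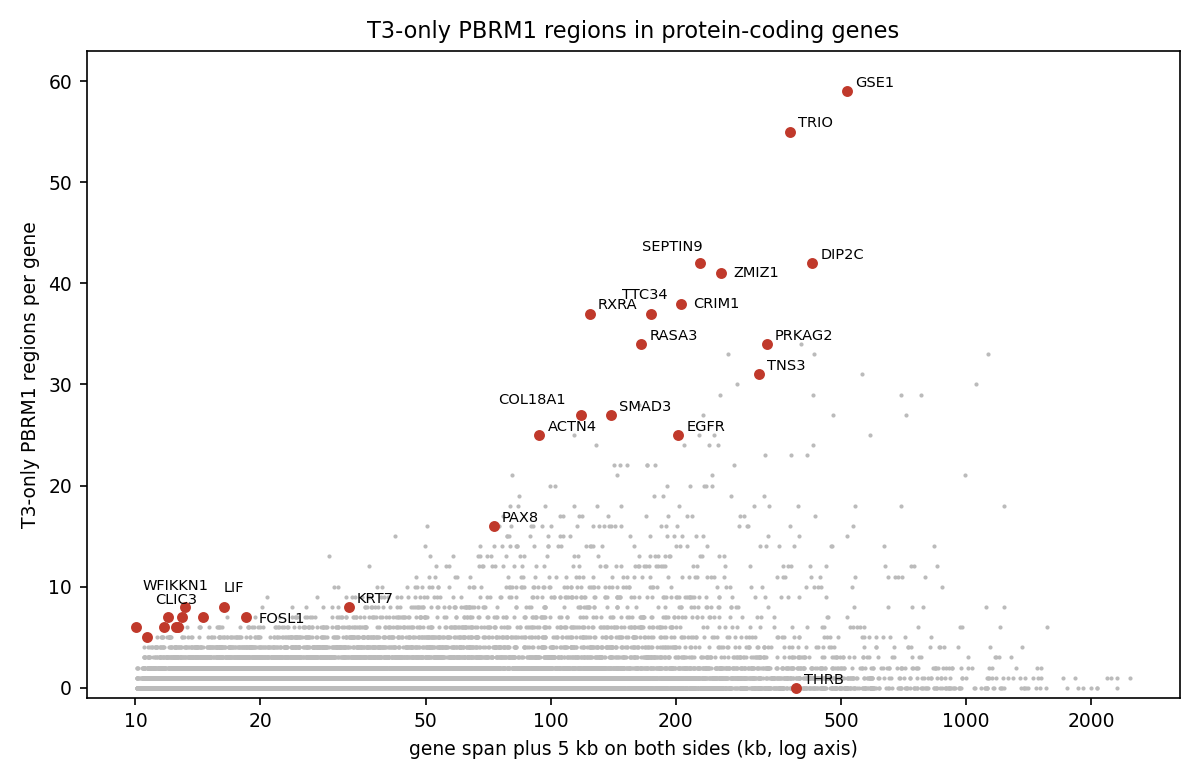
Number of T3-only PBRM1 regions (vertical axis) in each protein-coding gene against the length of its window, the span plus 5 kb on both sides, in kb (log axis); grey points are all 19974 genes and red points the 10 genes with most regions, the 10 with most per length and other genes of the text, most of them labelled. GSE1 (59) and TRIO (55) are highest, RXRA has 37 in a 124.1 kb window, and THRB has 0.

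At GSE1 the 59 T3-only regions stood beside 15 shared T3 and 4 vehicle-only regions, in a window of 516.7 kb. Its strongest T3-only region (chr16:85168371-85173246) was 4876 bp wide, with 16.6 and 19.3 in the 2 libraries. TRIO had 25 shared T3 and 4 vehicle-only regions, and of its 55 T3-only regions 47 met BRG1 with T3 and 0 met TRβ with T3. ZMIZ1 had 27 shared T3 and 6 vehicle-only regions, with 24 of 41 T3-only regions meeting BRG1 and 24 meeting ARID1A with T3. TTC34 was unlike these, since 1 of its 37 T3-only regions met BRG1 with T3 and 24 met ARID1A with T3, and 1 region was shared. Its T3-only regions were narrow, with a median of 432 bp.

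The order of these genes depended on the weaker regions. With the T3 list cut to the length of the vehicle list, GSE1 kept 12 T3-only against 6 vehicle-only regions, SEPTIN9 12 against 8, TRIO 11 against 10, RXRA 11 against 3, PRKAG2 6 against 5 and TTC34 2 against 1. In the same setting, which by construction leaves the 2 classes of nearly equal size, vehicle-only regions were the more numerous at ZMIZ1 (11 T3-only and 13 vehicle-only), CRIM1 (5 and 12), RASA3 (4 and 7) and DIP2C (3 and 4). At an IDR of at most 0.01 all 10 genes had more T3-only regions, from 20 at TTC34 to 42 at TRIO, and at most 1 vehicle-only region. That cut kept 22988 T3 regions and 2124 vehicle regions, and with it 0 of 19974 genes held 3 or more vehicle-only regions. It thus left little room for vehicle-only regions at any gene. With the signal minimum of 4.75 all 10 also had more T3-only regions, from 13 at DIP2C (3 vehicle-only) to 29 at GSE1 (6 vehicle-only). These settings were applied to single genes after the data were seen.

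RXRA, the partner of thyroid hormone receptors, had the most T3-only regions per length among these 10 genes. Its window held 37 T3-only, 4 shared T3 and 2 vehicle-only regions, or 29.8 T3-only regions per 100 kb. Their widths ran from 332 to 2497 bp with a median of 801 bp, and together they covered 38.5 kb. Signal values ran from 3.86 to 20.2 (median 6.99) in the first T3 library and from 3.23 to 13.4 (median 5.81) in the second. The strongest T3-only region (chr9:134323702-134325501) ended upstream of the start site, with 20.2 and 10.8. Of the 37 regions, 11 met BRG1, 16 met ARID1A and 2 met TRβ with T3, and 17 met BRG1 with vehicle. A shared region of 5144 bp, with 15.5 and 20.7 in the T3 libraries, lay at a second start inside the gene.

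**Figure D5:**
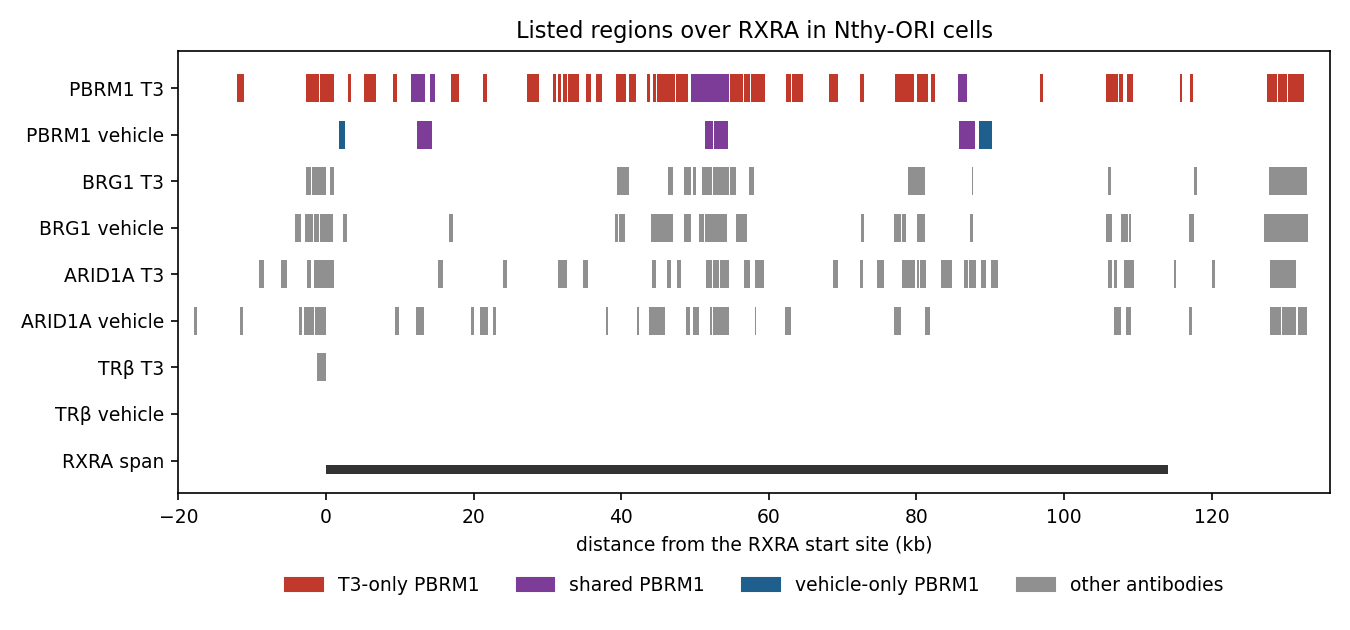
Listed regions over RXRA by distance from its start site in kb, one row per antibody and condition, with the gene span at the bottom; PBRM1 regions are coloured by class and those of other antibodies are grey. T3-only regions run along the whole span in the PBRM1 T3 row, while the vehicle row holds 4 shared and 2 vehicle-only regions in the gene window.

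Runs like this one were frequent. When T3-only regions with gaps of at most 10 kb were joined, 30188 regions formed 16301 clusters, of which 2796 held 3 or more regions and 197 held 10 or more. Clusters of 3 or more held 45.3% of all T3-only regions, and 34.8% stood alone. The largest was at RXRA, with 33 regions in 103 kb. It was followed by TRIO with 30 in 75.1 kb, TTC34 with 27 in 45.1 kb, SMAD3 with 26 in 80.9 kb, and ACTN4 with CAPN12 with 26 in 89.9 kb. The TTC34 cluster, 2.65 Mb from the end of chromosome 1, held 0 BRG1 T3 regions and no vehicle-list region. The TRIO cluster held 32 BRG1 T3 regions and 12 vehicle-list regions.

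Among the 10 genes with the most T3-only regions per length were WFIKKN1, with 8 T3-only regions in 13.1 kb or 60.9 per 100 kb, CLIC3 with 58.5 and SNAPC2 with 54.2 per 100 kb. All 8 regions at WFIKKN1, 5 of 7 at CLIC3 and all 7 at SNAPC2 also counted for neighbouring genes. LIF, which encodes a cytokine of the interleukin-6 family, was the only 1 of these 10 genes whose regions, 8 in 16.3 kb, all counted for it alone. Their widths ran from 526 to 2992 bp and their signal values from 6.87 to 15 in the first and from 5.38 to 17.1 in the second T3 library. Of the 8, 6 met BRG1 and 7 met ARID1A with T3, and LIF held no region of the vehicle list.

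Among the 345 genes with 10 or more T3-only regions, 24 had no vehicle-list region at all. This was a far smaller share than the 67.8% of all protein-coding genes without one. The 24 were led by SH3PXD2A, a podosome scaffold gene, with 19 T3-only regions in 272 kb. CAMK2B, a calmodulin-dependent kinase gene, had 17 in 119 kb. PTP4A3, a phosphatase gene, had 16 in 50.4 kb and UNC5B, a netrin receptor gene, 16 in 100 kb. LTBP2, whose product binds fibrillin in the matrix, had 14 in 124 kb, and its signal values ran from 3.66 to 11.2 and from 3.14 to 15.1 in the 2 libraries. LTBP2 kept 3 T3-only regions with lists of equal length, where a gene without vehicle-list regions cannot gain a vehicle-only one.

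The genes with the most vehicle-only regions were TEAD1 and ZMIZ1 with 6 each, and CMIP, WWC2 and DDAH1 with 5 each. TEAD1 is a transcription factor of the Hippo pathway and WWC2 an upstream regulator of that pathway. In the lists as deposited all 5 held still more T3-only regions, with 30 at TEAD1, 41 at ZMIZ1, 22 at CMIP, 13 at WWC2 and 10 at DDAH1. With lists of equal length vehicle-only regions were the more numerous at all 5, with 4 T3-only and 9 vehicle-only regions at TEAD1, 11 and 13 at ZMIZ1, 1 and 10 at CMIP, 1 and 5 at WWC2 and 0 and 6 at DDAH1. With the signal minimum this held at CMIP (4 and 7) and DDAH1 (1 and 7) but not at TEAD1 (14 and 8), ZMIZ1 (23 and 10) or WWC2 (7 and 5). Their vehicle-only regions stood among T3-only ones, and at WWC2 no region was shared. In all, 317 protein-coding genes held more vehicle-only than T3-only regions. THRB was one, with 0 T3-only regions, 1 shared T3 region at its start and 1 vehicle-only region (chr3:24301702-24302760) of 1059 bp, at 5.71 and 5.65 in the vehicle libraries.

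Subunit genes of PBAF itself carried few regions each. Of 16 PBAF and core genes, 14 held at least 1 T3-only region (87.5%, against 59.3% of all protein-coding genes), 5 held 3 or more (31.2%, against 16.0%) and 0 held a vehicle-only region (against 8.23%). With lists of equal length, 0 of the 16 held 3 or more T3-only regions (against 1.18% of all genes). In that setting 2 held a vehicle-only region (12.5%, against 20.2%). PBRM1 and BRD7 each had 1 T3-only region, the start-site regions printed above, and no vehicle-list region. ARID2 had 1 T3-only region of 2268 bp at 10.1 and 13.6, and PHF10 had 2. SMARCD3, a core subunit gene, led with 6, among them a region of 4987 bp (chr7:151245061-151250047) at 12.8 and 30.6. Without the 5 kb flanks, 1 of the 16 genes (6.25%) held 3 or more, below the 10.0% of all genes. Among 11 BAF genes, 5 held 3 or more (45.5%), led by ARID1B with 11 in 444.8 kb, and 4 held a vehicle-only region.

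Among 19 receptors and cofactors of thyroid hormone action, 7 held 3 or more T3-only regions (36.8%, against 16.0% of all protein-coding genes). These genes are long, with a median window of 124 kb against 34.2 kb for all genes. RXRA led with 37 regions, and the coactivator gene CREBBP had 11. THRA, which encodes thyroid hormone receptor alpha, had 5 T3-only, 3 shared T3 and 0 vehicle-only regions. Its strongest T3-only region (chr17:40068914-40070851) had 20.6 and 8.05 in the T3 libraries. RXRG held no PBRM1 region.

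PAX8 stood out among the 14 genes of thyroid identity and hormone synthesis, of which 4 held 3 or more T3-only regions (28.6%, against 16.0% of all protein-coding genes). PAX8, a transcription factor of the thyroid follicular lineage, had 16 T3-only, 4 shared T3 and 1 vehicle-only region in 72.9 kb. Its shared start-site region was 3667 bp wide, with 14.3 and 21.6 in the T3 libraries, and met 2 vehicle regions, the wider of 2604 bp with 14.7 and 16.2. Its T3-only regions ran from 4.37 to 17.5 and from 3.39 to 16.3, mostly below the shared one. PAX8 had 4 T3-only and 2 vehicle-only regions with lists of equal length, and 7 and 1 with the signal minimum. GLIS3 had 11 T3-only regions, the thyroglobulin gene TG 5, HHEX 4, FOXE1 1 and the receptor gene TSHR 1. Of the 5 at TG, 4 also counted for SLA, and NKX2-1 held 0 PBRM1 regions of any class.

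Deiodinases, hormone transporters and T3-responsive genes held T3-only regions about as often as other genes. Of 20 such genes, 12 (60.0%) held at least 1, against 59.3% of all protein-coding genes, and 4 of the 20 held 3 or more, against 16.0%. MBP had 6 in 164.9 kb, HR and FURIN 3 each, and the deiodinase gene DIO1 3. KLF9, a direct target of T3 in many tissues, had 1 T3-only region of 591 bp at 7.62 and 3.33. It also had a shared region near its start, with 7.63 and 13.3 in the T3 libraries and 8.35 and 13.2 in the vehicle libraries. Levels are not comparable between lists, so these values do not show whether occupancy differed at this region.

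The gene groups with the largest shares were those of the cytoskeleton, adhesion and TGF-beta signalling. Of 29 actin and focal adhesion genes, 20 (69.0%) held 3 or more T3-only regions, with a median of 5 per gene against 1 for all genes. TNS3, a focal adhesion tensin gene, had 31, the actin cross-linker gene ACTN4 25 and TNS1 20. Of 27 cytolinker, keratin and junction genes, 17 (63%) held 3 or more, among them MACF1 with 10 and KRT7 and KRT8 with 8 each. Of 21 TGF-beta genes, 12 (57.1%) held 3 or more, among them SMAD3 with 27, LTBP2 with 14 and the corepressor gene SKI with 11. Vehicle-only regions stood in 12 of the 29 (41.4%), 10 of the 27 (37%) and 7 of the 21 (33.3%), against 8.23% of all genes, so the same groups were high in both classes. With lists of equal length, 6 of the 29 actin genes held 3 or more T3-only regions and 8 held 3 or more vehicle-only regions, against 1.18% and 1.31% of all genes. With the signal minimum these were 17 and 6 of the 29, against 6.35% and 0.826%.

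At SMAD3 27 T3-only, 9 shared T3 and 1 vehicle-only region lay in 139.6 kb. Signal values of the T3-only regions ran from 4.15 to 14 and from 2.98 to 19.4, and 24 of the 27 met BRG1 with T3 while 0 met TRβ with T3. The main start of SMAD3 lay under a shared region of 3944 bp, with 15.2 and 18.2 in the T3 libraries. The internal start printed above lay in the run of T3-only regions downstream. At ACTN4, 25 T3-only and 11 shared T3 regions lay in 93.9 kb with 0 vehicle-only regions. With lists of equal length ACTN4 kept 1 T3-only region and had 3 vehicle-only regions, and SMAD3 kept 8 and had 4. With the signal minimum ACTN4 had 6 T3-only and 1 vehicle-only region and SMAD3 19 and 3, and at an IDR of at most 0.01 ACTN4 had 12 and 0. KRT7, a keratin gene of simple epithelia, held a T3-only region of 4435 bp (chr12:52231272-52235706) at 14.6 and 33.4.

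Of 27 matrix genes, 12 (44.4%) held 3 or more T3-only regions, led by COL18A1 with 27, COL4A2 with 20 and COL5A1 with 17, whereas COL1A2 and COL3A1 held no PBRM1 region. Of 29 growth factor receptor and RAS-MAPK genes, 12 (41.4%) held 3 or more, led by EGFR with 25 and IGF1R with 19. Of 22 glycolysis and hypoxia genes, 11 of the 22 did so, led by EPAS1, a hypoxia-inducible factor gene, with 10, and by PFKP and the glucose transporter gene SLC2A1 with 9 each. Of 16 AP-1 and related genes, 6 (37.5%) did so, led by FOSL1 with 7 in 18.5 kb, of which 4 also counted for neighbouring genes. FOSL1 held no region of the vehicle list, and it kept 4 T3-only regions with lists of equal length. The shares of these 4 groups compare with 16.0% of all protein-coding genes. Vehicle-only regions stood in 6 of the 27 matrix genes (22.2%), 5 of the 29 receptor genes (17.2%), 5 of the 22 glycolysis genes (22.7%) and 2 of the 16 AP-1 genes (12.5%), against 8.23% of all genes.

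The lists of ribosomal protein genes and of genes of other lineages each had a share with 3 or more T3-only regions below 16.0%. Of 46 ribosomal protein genes, 4 held 3 or more (8.70%), but 31 held at least 1 T3-only region (67.4%, against 59.3% of all genes). These genes are short, with a median window of 14.9 kb against 34.2 kb for all genes. With 25 kb instead of 5 kb added on both sides of each gene, the share was 47.8% against 32.7%. Of 23 neuronal and muscle genes, 3 held 3 or more (13%), namely RBFOX3 with 25 in 586.2 kb, GRIN1 with 9 and TUBB3 with 5. Of these regions, 2 at RBFOX3, 4 at GRIN1 and 4 at TUBB3 also counted for neighbouring genes. Without flanks the share was 13% against 10.0%. Of 16 blood and immune genes, 4 held at least 1 T3-only region and 2 held 3 or more (12.5%), CD4 and HBA1, whose regions all counted for neighbouring genes too. No region of either list lay at PTPRC, CD14 or SPI1.

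The strongest T3-only regions were wide and lay with other antibodies' regions. The strongest T3-only regions overlapped PLEC, a cytolinker gene, and MEGF6, with 22.8 and 64.7 and with 32.4 and 50.2 in the first and second T3 libraries. That at PLEC was 11254 bp wide and that at MEGF6 9533 bp, and these, with the region at SLC9A3, met all 6 lists of other antibodies. Those at SLC9A3 (22.6 and 40.4), NDST1 (17.5 and 42.8) and SHB (26.2 and 30.4) were 4976 to 5671 bp wide. Among shared regions, CXXC5 had 27.3 and 105 over 15142 bp and UGCG 44.5 and 26.2 over 4817 bp, but those at ALLC (34.2 and 67.2) and AVPI1 (29.7 and 53.2) were 215 and 121 bp wide. The strongest vehicle-only region (chr3:134328974-134331232) lay 24.1 kb from AMOTL2, with 15.3 and 18.1 in the vehicle libraries. It and the next 4, at KLF16, PDGFC, KIRREL1 and ARHGAP17, were 1905 to 2315 bp wide, and none met a TRβ region.

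T3-only regions covered start sites rich in CpG, much like shared regions. Of 34961 promoter windows of 300 bp in the RefSeq table, 9571 (27.4%) met a T3-only region, 5157 a shared T3 region and 287 a vehicle-only region. Median G or C content was 67.3% (quartiles 61.0 and 73.3) in the first set, 68.3% in the second and 61.3% in the third, against 49.7% in the 19820 windows with no PBRM1 region. Median CpG counts were 28, 29 and 20, against 4. The AGGTCA motif, on either strand, was present in 9.77% (9.18 to 10.4%) of windows under T3-only regions, 7.76% under shared T3 regions and 13.2% under vehicle-only regions, against 13.8% of all windows. The windows without PBRM1 held it in 17.3%. A direct repeat of the motif with 4 bases between the copies was found in 0 of the 9571 windows and in 7 of all 34961. These matches describe letters in a window of this length and say nothing of receptor binding.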

How the data were processed

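CUT&RUN libraries were made with antibodies to PBRM1, BRG1, ARID1A and TRβ from Nthy-ORI cells given T3 or vehicle, 2 per group, and 1 IgG library, not analysed here. Tools listed by the submitters' processing notes are Bowtie2, Trim Galore, MACS2 and CASAVA 1.7, with build hg38. For parameters, read depth and use of the IgG library, the sources used here give nothing. Each group has 1 list in the column layout of the IDR method, without a header. The deposited signal value of a region is the sum of its values in 2 libraries, given in 2 further columns whose replicate numbers are not stated. The deposited score is a scaled IDR, and the deposited −log10 of the IDR shows rates up to 0.05 in both PBRM1 lists. Signals were compared only within a list, except that the signal minimum came from the vehicle list and was applied to the T3 list.

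Regions were intersected as deposited, without merging (0 overlapped within a list). Shares have exact Clopper-Pearson 95% intervals. Gene positions and start sites came from RefSeq GRCh38.p14, the build that hg38 names; 336 of 336 entries in 15 gene lists matched by symbol. No test between conditions was possible with 1 list each. The members, gene lists and alternatives were chosen with earlier results of these data known. Named genes were: the 10 with most T3-only regions; the 10 densest with 5 or more; the 5 with most vehicle-only regions; the 5 strongest regions of each class; up to 3 per list; the 5 largest clusters; and PBRM1, ARID2, BRD7, PHF10, THRB, THRA, PAX8 and KLF9. Other named genes, such as the 24 without vehicle regions or list members at 0, were chosen after their values were seen. Overlap and gene counting were tested on simulated lists. Alternatives were IDR, list length, overlap, intervals of 1 library, signal minimum, gene windows and distances. Tool versions were pandas 2.3.3, numpy 2.4.6, scipy 1.17.1, matplotlib 3.10.9 and Python 3.11.15. Another 52 per-library columns, such as summit positions, were not used. Some genes are not reported here.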

Additional observations from a re-analysis of the deposited data

Results flagged for a closer look

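The PBRM1 T3 list held 110 regions and the vehicle list 9 regions outside chromosomes 1 to 22 and X, which no comparison used. They draw attention as signal in data outside the main measurement. Of the 110 T3 regions, 8 lay on chromosome Y, and the sequences that held the others were not broken down. Of the 9 vehicle regions, 0 lay on chromosome Y.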

How the results depend on the processing

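No paired analysis was possible because each condition has 1 list made from both libraries. The T3-only share of 79.2% and the vehicle-only share of 24.9% were 89.9% and 10.9% at an IDR of at most 0.01, 60.6% and 60.7% with lists of equal length, 87.0% and 45.5% with reciprocal overlap of 50%, 75.2% and 19.9% when a gap of 500 bp counted as shared, and 71.9% and 41.5% when both library values had to reach 4.75. With the intervals of 1 library they were 79.4 to 79.7% and 25.3 to 25.9%. The median T3-only width of 747 bp was 1037 bp at that IDR, 1515 bp with equal lengths, 1020 bp with the signal minimum and 618 to 669 bp with 1 library. The share of T3-only regions within 1 kb of a gene start or end, 31.0%, was 43.5% at that IDR, 55.3% with equal lengths and 41.8% with the signal minimum. It was 46.4% within 3 kb, 25.7% with protein-coding genes only and 31.0% with 1 library. The 3196 genes with 3 or more T3-only regions were 2031 at that IDR, 236 with equal lengths, 1269 with the signal minimum, 2004 without flanks, 6526 with 25 kb, 1314 at 5 or more regions and 3209 to 3233 with 1 library. Of 15 gene lists, 12 lay above the background, 11 without flanks and 13 with 25 kb. Settings applied to single genes and gene lists for list length, IDR and signal were added after seeing the data. The causes of these shifts were not tested. Of 159 alternative values, 55 stayed within the interval or 1.5 times of the main value.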
